A study of Mus musculus with 9 samples.

Results

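The GATA, HAND, MEF2 and TCF21 factors are DNA-binding proteins that take part in specifying mesodermal tissues such as the heart, the vessel wall and the lining of body cavities. Their 9 genes Gata2, Gata3, Gata4, Gata5, Gata6, Hand1, Hand2, Mef2c and Tcf21 were taken by name from a table of 54532 mouse genes. Expression had been measured by bulk RNA sequencing of adipose-derived stem cells (ASCs), which are stromal cells that grow out of digested fat and can give rise to several lineages. The ASCs came from subcutaneous (Sub-ASCs), abdominal (Ab-ASCs) and perivascular (PVASCs) fat of C57BL/6 mice, with 3 libraries in each group and 9 in all. Perivascular fat is the fat around the outer layer of blood vessels. The labels name no treatment or genetic change, and the study describes a single growth medium, with serum, leukemia inhibitory factor and fibroblast growth factor. Neither age nor sex is given. For the sequenced cells the study states a range of culture passages, but not the passage of each group or library. The labels do not say whether the libraries of a group came from separate mice or cultures, so the p-values measure the spread between these libraries, which may be technical.

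GATA factors bind the sequence GATA through zinc fingers. GATA2 and GATA3 act in blood cells and hold back fat cell differentiation of preadipocytes, whereas GATA4, GATA5 and GATA6 act in the heart, gut and body cavity lining. HAND1, HAND2 and TCF21 are basic helix-loop-helix (bHLH) factors, which bind DNA as dimers with E proteins such as TCF3. TCF21 is known in the fibroblast lineage of the epicardium, the outer layer of the heart. MEF2C belongs to the MADS-box family and acts in muscle, endothelial and blood cells. In the developing heart, GATA4, HAND2, MEF2C and the T-box factors act on shared target genes.

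The coding sequence of the second zinc finger, the DNA-binding one, is shown for Gata2, Gata3, Gata4 and Gata5 to make clear how closely they resemble each other and how far their reads can be told apart. Each run holds the 75 bases from the first to the last of the 4 zinc-binding cysteines, read 5′ to 3′ along the coding strand. Capitals mark the 47 positions at which the 4 sequences shown are identical.
Gata2: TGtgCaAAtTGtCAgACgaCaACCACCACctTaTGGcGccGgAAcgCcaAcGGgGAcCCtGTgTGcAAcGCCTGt
Gata3: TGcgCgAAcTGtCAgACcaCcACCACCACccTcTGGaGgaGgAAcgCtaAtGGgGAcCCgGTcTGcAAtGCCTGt
Gata4: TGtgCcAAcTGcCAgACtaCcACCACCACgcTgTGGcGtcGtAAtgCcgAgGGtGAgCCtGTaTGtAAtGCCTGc
Gata5: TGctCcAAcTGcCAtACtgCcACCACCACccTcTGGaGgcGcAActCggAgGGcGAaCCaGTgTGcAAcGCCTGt
On GRCm38 with the GENCODE M21 annotation these lie in coding exons, within exon 5 of Gata2 (chr6:88204610-88204684, plus strand), exon 5 of Gata3 (chr2:9863119-9863193, minus strand), exon 4 of Gata4 (chr14:63203683-63203757, minus strand) and exon 3 of Gata5 (chr2:180328331-180328405, minus strand). Over these bases, pairs among the GATA genes were 69.3% identical (Gata5 and Gata6) to 81.3% identical (Gata4 and Gata6), and Gata2 and Gata3 were 80% identical. The Gata6 sequence is not printed here. The longest exact run shared by the coding transcripts of any 2 of the 9 genes was 26 bases, between Gata4 and Gata5. No pair of these genes is thus a near-identical copy.

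Upstream sequence is shown for 3 genes whose levels differed between depots in different ways, as given below. Each run holds the 200 bases before the RefSeq start on GRCm38.p6, read 5′ to 3′ along the strand of the gene. Capitals mark matches to AGATAA, a common GATA binding sequence, or to TATAAA, on either strand.
Hand2: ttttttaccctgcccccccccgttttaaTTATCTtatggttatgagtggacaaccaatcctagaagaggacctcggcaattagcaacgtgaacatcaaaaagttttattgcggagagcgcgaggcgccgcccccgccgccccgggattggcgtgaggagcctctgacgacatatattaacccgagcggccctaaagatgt
Tcf21: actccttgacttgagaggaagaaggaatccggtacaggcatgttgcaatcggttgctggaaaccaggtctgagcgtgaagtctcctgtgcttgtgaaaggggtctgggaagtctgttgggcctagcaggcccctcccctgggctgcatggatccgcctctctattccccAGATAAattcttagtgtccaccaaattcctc
Mef2c: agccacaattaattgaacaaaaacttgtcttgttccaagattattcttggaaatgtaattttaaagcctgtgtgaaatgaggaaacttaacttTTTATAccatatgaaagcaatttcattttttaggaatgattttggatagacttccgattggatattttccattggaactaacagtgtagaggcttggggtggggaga
These are chr8:57320783-57320982 (plus strand) for Hand2, chr10:22820144-22820343 (minus strand) for Tcf21 and chr13:83503834-83504033 (plus strand) for Mef2c. In windows from 250 bases before to 50 bases after the start, AGATAA was found once in Hand2 and once in Tcf21, and 11.2% of all 32851 promoters of the table held it. The table has 9 promoters for 6 of the 9 genes, and the other promoters, of Gata2, Gata3, Gata5 and Mef2c, had 0 matches to it. For TATAAA, a match was found once in the Mef2c promoter shown and once in another Mef2c promoter, and 13.6% of all promoters held it. Tcf21 and Hand2 also differed in CG dinucleotides, with 8 and 17 against a median of 7 over all promoters, whereas the Mef2c promoter shown had 1 and the other Mef2c promoters 10 and 4. These matches describe the sequence and were not tested as binding sites.

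In the libraries, 20524173 to 29881036 reads were counted on genes. Counts were scaled to CPM, the reads of a gene per 1000000 reads of its library, with library sizes normalized by the TMM method of edgeR. At this depth 3 reads, taken as the smallest measurable count, were 0.0917 to 0.161 CPM, and such limits cover counting error only. Levels of different genes are compared as FPKM, in which the reads are divided by the listed gene length and by the plain library total, without the TMM factor, so FPKM and CPM can order the groups differently. Of the 9 genes, 8 had enough reads to be tested and Hand1 did not. Differences were tested by edgeR's quasi-likelihood test in a single fit of all 9 libraries over 16526 genes, with Benjamini-Hochberg adjustment at 0.05. Between PVASCs and Sub-ASCs, 7 of the 9 genes were higher and 0 lower in PVASCs, where 70.4% of all genes tested were called, 34.7% higher and 35.7% lower. Between Ab-ASCs and Sub-ASCs, 7 were higher and 1 lower in Ab-ASCs, where 75.3% of all genes were called, 37% higher and 38.3% lower. Between PVASCs and Ab-ASCs, 3 were higher and 3 lower in PVASCs, where 56.9% of all genes were called, 24.7% higher and 32.1% lower. The 3 comparisons share their libraries. Ab-ASC replicate 1 stood apart from the other Ab-ASC libraries, with a chi-square of 29.3 and 18.5 per degree of freedom against 2.92 to 8.09 for all other replicate pairs, and these counts of genes were the same without it. Gata3, Gata4, Gata5 and Tcf21 passed the filter on low counts only through groups in which they were high, so their being called against Sub-ASCs follows in part from that choice. For Gata5 this holds also between PVASCs and Ab-ASCs, since it passed only through Ab-ASCs. The same limit applies to the partner, target and marker genes below that had enough reads in some groups only, such as Msc, Nppb, Tnnt2 and Tbx20, and to the counts of lists that hold them.

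**Figure D1:**
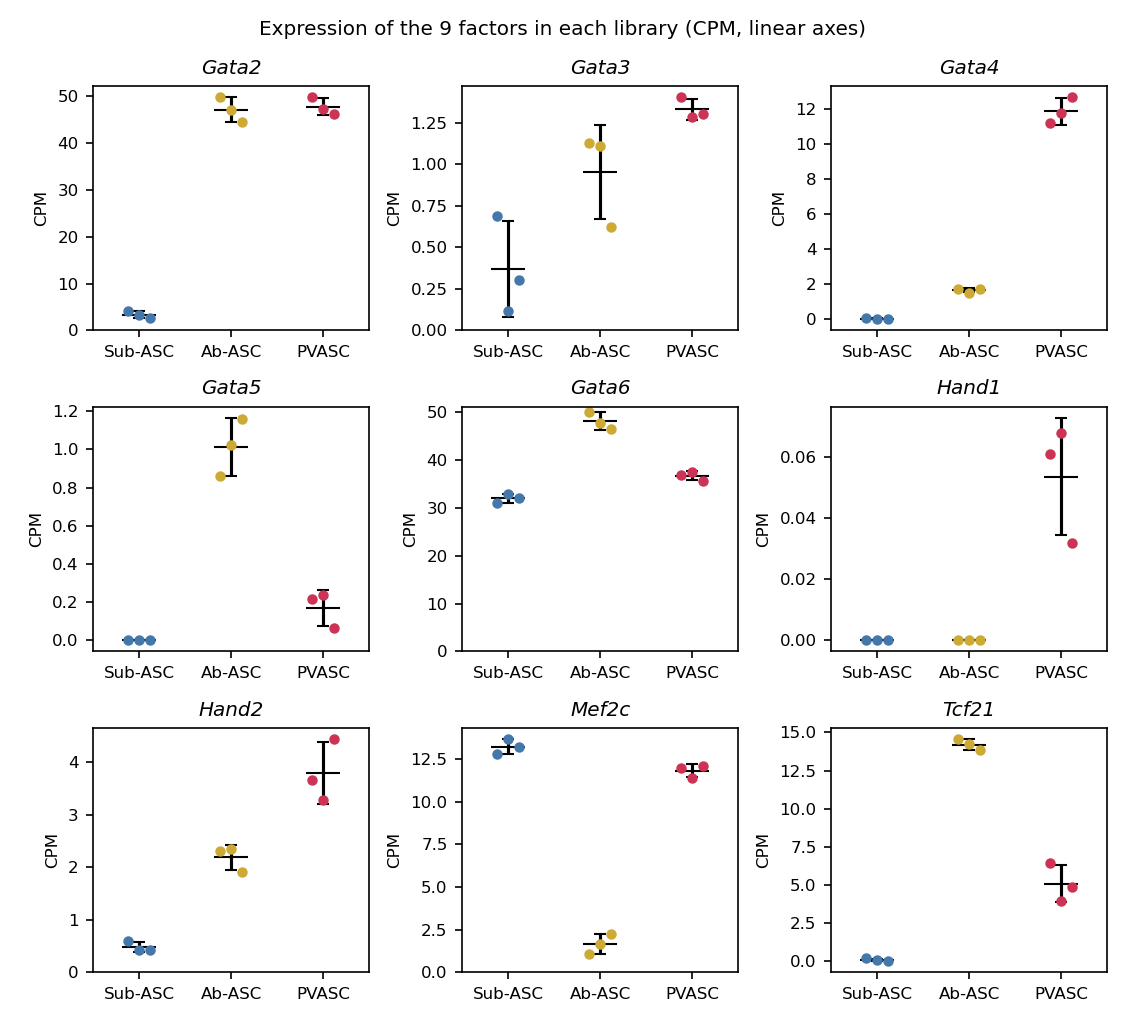
Expression of the 9 genes in each library in CPM, on linear axes that differ between panels. Points are libraries, and the bar and whiskers are the mean ± SD of 3 libraries. Gata2, Gata4, Hand2 and Tcf21 lie near the bottom in Sub-ASCs, and Mef2c does so in Ab-ASCs.

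Gata2, which keeps blood stem cells and preadipocytes undifferentiated, parted Sub-ASCs from both other groups. It is a protein-coding gene on the plus strand of chromosome 6 (chr6:88193891-88207032). In Sub-ASCs 95, 85 and 70 reads were counted, in Ab-ASCs 929, 1058 and 999, and in PVASCs 1631, 1396 and 1456. Every Sub-ASC library was far below every library of the other groups, whereas Ab-ASC and PVASC libraries overlapped in CPM. The mean was 3.36 ± 0.705 CPM in Sub-ASCs, 47.2 ± 2.67 in Ab-ASCs and 47.8 ± 1.83 in PVASCs (SD, n = 3). Relative to Sub-ASCs, Gata2 was 14.3-fold higher in PVASCs (log2 fold change 3.84, SE 0.11, adjusted p = 1.2e-11, edgeR). In Ab-ASCs it was 14.1-fold higher than in Sub-ASCs (log2 fold change 3.81, SE 0.11, adjusted p = 1.34e-11, edgeR). Between PVASCs and Ab-ASCs, the log2 fold change of 0.02 did not pass the test (adjusted p = 0.851, edgeR), with an approximate 95% interval of -0.15 to 0.19. The noncoding gene Gm38708, which starts 3210 bases from Gata2 on the other strand, had 0 to 1 reads in Sub-ASCs, 16 to 29 in Ab-ASCs and 20 to 25 in PVASCs.

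Gata3, known from T cells, epithelia and preadipocytes, had few reads in all groups and came near the limit of 3 reads in Sub-ASCs. Its position is chr2:9857078-9890034 on the minus strand. It had 16, 3 and 8 reads in Sub-ASCs, 21, 25 and 14 in Ab-ASCs and 46, 38 and 41 in PVASCs. The PVASC libraries were above all others in CPM, and Ab-ASC and Sub-ASC libraries overlapped. Relative to Sub-ASCs, Gata3 was 3.65-fold higher in PVASCs (log2 fold change 1.87, SE 0.42, adjusted p = 0.00155, edgeR). Without Sub-ASC replicate 1, which had the most reads of its group, this log2 fold change was 2.62, and that between Ab-ASCs and Sub-ASCs was 2.13. The difference between Ab-ASCs and Sub-ASCs passed the test (log2 fold change 1.38, SE 0.46, adjusted p = 0.0163, edgeR) but no longer did without Sub-ASC replicate 2 (adjusted p = 0.0558) or Sub-ASC replicate 3 (adjusted p = 0.0548). Between PVASCs and Ab-ASCs the log2 fold change was 0.49 (approximate 95% interval -0.22 to 1.20), which did not pass the test. Of the genes that overlap Gata3, 9230102O04Rik on the same strand had 0 reads in every library, and 4930412O13Rik and Gm13256 on the other strand had at most 2.

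Gata4, a cardiac and mesothelial factor, set PVASCs apart from both other depots. The gene spans chr14:63198922-63271692 on the minus strand. In PVASCs 365, 346 and 398 reads were counted, in Ab-ASCs 32, 34 and 38, and in Sub-ASCs 1, 0 and 0. The groups did not overlap. Its mean level was 11.8 ± 0.758 CPM in PVASCs and 1.64 ± 0.113 in Ab-ASCs (SD, n = 3), which is 7.22-fold higher in PVASCs (log2 fold change 2.85, SE 0.14, adjusted p = 9.26e-09, edgeR). Sub-ASCs held a single read over all libraries. Against it the ratio was 888 for PVASCs, with a 95% counting interval of 159 to 35090, and 123 for Ab-ASCs, with an interval of 21.5 to 4891. Both passed the test (adjusted p = 2.6e-11 and 6.77e-08, edgeR). The read was in replicate 1, and without that library Sub-ASCs held 0 reads, so that the size of the ratio rests on it.

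Gata5, which acts with GATA4 in heart valve and endocardial development, had few reads and another order of groups. Its position is chr2:180325133-180334699 on the minus strand. It had 16, 23 and 26 reads in Ab-ASCs, 7, 7 and 2 in PVASCs and 0 in each Sub-ASC library. Ab-ASC libraries were above all PVASC libraries in CPM. Gata5 was 5.82-fold lower in PVASCs than in Ab-ASCs (log2 fold change -2.54, SE 0.42, adjusted p = 0.000544, edgeR), with the limit of the filter given above. Set against 3 reads per Sub-ASC library, its mean level was 8.42-fold higher in Ab-ASCs and 1.43-fold higher in PVASCs. These ratios leave out the counting error of the higher group. PVASC replicate 3, at 0.0636 CPM, was below the 3-read limit of every Sub-ASC library, 0.114 to 0.129 CPM. When only PVASCs and Sub-ASCs were fitted, Gata5 had too few reads to be tested. Its antisense gene Gata5os had at most 2 reads in a library.

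Gata6, a factor of heart, vessel wall and visceral mesoderm, was the most evenly expressed of the genes tested. It lies on the plus strand of chromosome 18. It had 723, 835 and 840 reads in Sub-ASCs, 933, 1074 and 1043 in Ab-ASCs and 1207, 1105 and 1120 in PVASCs. In CPM the means were 32.0 ± 0.891 in Sub-ASCs, 48.1 ± 1.82 in Ab-ASCs and 36.7 ± 0.936 in PVASCs (SD, n = 3). The libraries of the groups did not overlap in CPM, although the differences were small. Gata6 was higher in Ab-ASCs than in Sub-ASCs (log2 fold change 0.59, SE 0.06, adjusted p = 1.51e-06, edgeR). In PVASCs it was 1.15-fold higher than in Sub-ASCs (log2 fold change 0.20, SE 0.06, adjusted p = 0.00937, edgeR) and 1.31-fold lower than in Ab-ASCs (log2 fold change -0.39, SE 0.06, adjusted p = 0.000125, edgeR). None of these reached an absolute log2 fold change of 1. The noncoding gene 1010001N08Rik, which starts 59 bases away on the other strand, had 20 to 40 reads in Sub-ASCs, 24 to 33 in Ab-ASCs and 34 to 48 in PVASCs.

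The makeup of the GATA family differed between the depots, and its summed level was lowest in Sub-ASCs. The FPKM of Gata1 to Gata6 summed to 6.39 ± 0.179 in Sub-ASCs, 17.1 ± 0.524 in Ab-ASCs and 20.6 ± 0.325 in PVASCs (SD, n = 3). In summed CPM the values were 35.9 ± 0.777, 98.9 ± 4.59 and 97.9 ± 1.79, so the order of Ab-ASCs and PVASCs turned with the scale. By FPKM, Gata6 made up 87.5% ± 2.26 of this sum in Sub-ASCs, 47.0% ± 0.422 in Ab-ASCs and 34.8% ± 0.604 in PVASCs. Gata2 held 9.53% ± 1.95, 47.7% ± 0.531 and 47.0% ± 1.14 in the same order. Gata4 held 16.1% ± 1.28 in PVASCs and 2.30% ± 0.177 in Ab-ASCs, and in Sub-ASCs it rested on a single read. Thus Gata6 was the leading GATA transcript in every Sub-ASC library, and Gata2 and Gata6 overlapped in FPKM in Ab-ASCs. In PVASCs every library had more Gata2 than Gata6. Gata1, the erythroid factor, which is no member of the set, had 1 to 12 reads in Sub-ASCs and at most 1 in any other library.

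**Figure D2:**
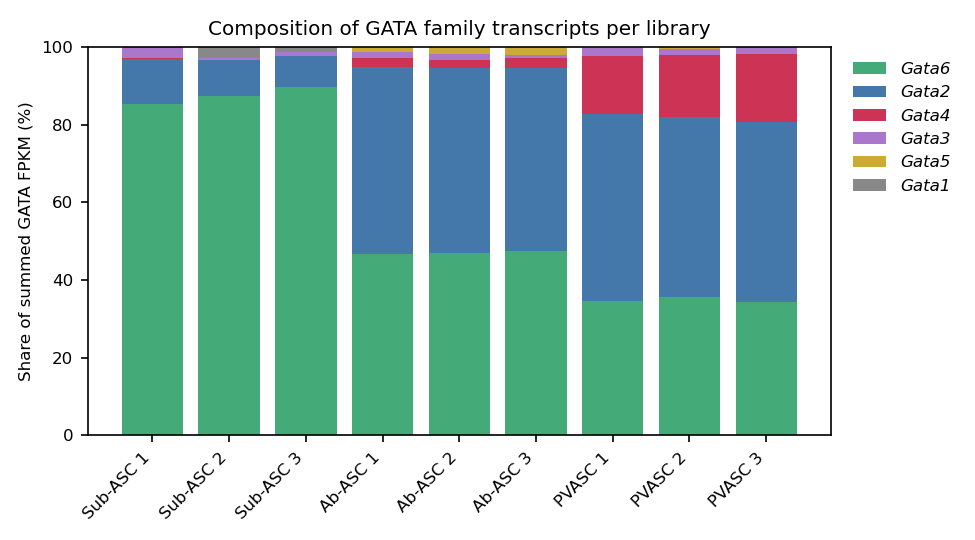
Share of each GATA gene in the summed FPKM of Gata1 to Gata6, in percent, for each of the 9 libraries as stacked bars. Gata6 fills most of the bar in Sub-ASCs, Gata2 and Gata6 fill most of it in Ab-ASCs, and Gata4 adds 16.1% on average in PVASCs.

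Hand2, which is needed for the right ventricle and acts in limb and smooth muscle, rose stepwise from Sub-ASCs over Ab-ASCs to PVASCs. It lies on the plus strand of chromosome 8 (chr8:57320983-57324633). It had 14, 11 and 11 reads in Sub-ASCs, 43, 53 and 43 in Ab-ASCs and 120, 97 and 140 in PVASCs. The groups did not overlap in CPM, with means of 0.484 ± 0.101, 2.19 ± 0.241 and 3.80 ± 0.594 (SD, n = 3). Relative to Sub-ASCs, Hand2 was 7.85-fold higher in PVASCs (log2 fold change 2.97, SE 0.22, adjusted p = 9.59e-08, edgeR). It was 1.74-fold higher in PVASCs than in Ab-ASCs (log2 fold change 0.80, SE 0.17, adjusted p = 0.00208, edgeR) and 4.52-fold higher in Ab-ASCs than in Sub-ASCs (log2 fold change 2.18, SE 0.25, adjusted p = 5.14e-06, edgeR). The noncoding gene AV026068 overlaps 3251 bases of Hand2 on the other strand and had 0 reads in each Sub-ASC library, 5 to 8 in Ab-ASCs and 4 to 20 in PVASCs. The strand setting of the counting is not given, so reads of the 2 genes may not have been told apart where they overlap.

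Hand1, which acts in the left ventricle and in the placenta, was close to absent. The gene spans chr11:57828705-57832818 on the minus strand. It had 2, 2 and 1 reads in PVASCs and 0 in each of the other 6 libraries. All groups were at or below 3 reads per library, and no difference was detectable at this depth.

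Tcf21, the marker of epicardial and visceral fibroblast precursors, was highest in Ab-ASCs. It lies on the minus strand of chromosome 10 (chr10:22817281-22820174). It had 271, 320 and 310 reads in Ab-ASCs, 210, 117 and 153 in PVASCs and 4, 1 and 0 in Sub-ASCs. The groups did not overlap, and the PVASC libraries were spread widely, from 3.97 to 6.42 CPM. The mean was 14.2 ± 0.364 CPM in Ab-ASCs and 5.08 ± 1.24 in PVASCs (SD, n = 3), which is 2.78-fold lower in PVASCs (log2 fold change -1.48, SE 0.17, adjusted p = 1.81e-05, edgeR). Against the 5 reads of Sub-ASCs, the ratio was 213 for Ab-ASCs, with a 95% counting interval of 90.7 to 656, and 76.8 for PVASCs, with an interval of 32.7 to 238. Both passed the test (adjusted p = 1.05e-09 and 3.71e-08, edgeR). The counting intervals do not cover the spread between libraries, and 4 of the 5 reads were in replicate 1. Without that library the fitted log2 fold change moved from 7.63 to 9.20 for Ab-ASCs and from 6.16 to 7.72 for PVASCs, and without Sub-ASC replicate 3 to 7.04 and 5.57. The antisense gene Gm10824 spans all 2894 bases of Tcf21 and had 0 reads in each Sub-ASC library, 8 to 9 in Ab-ASCs and 11 to 15 in PVASCs. Reads of the 2 strands may not have been told apart here either.

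Mef2c was the exception among the genes tested, since it was low in Ab-ASCs and not in Sub-ASCs. The gene spans chr13:83504034-83667080 on the plus strand. It had 298, 348 and 346 reads in Sub-ASCs, 392, 336 and 380 in PVASCs, and 20, 37 and 51 in Ab-ASCs. Every Ab-ASC library was below every other library. The mean was 13.2 ± 0.442 CPM in Sub-ASCs, 11.8 ± 0.377 in PVASCs and 1.66 ± 0.600 in Ab-ASCs (SD, n = 3). Mef2c was 6.97-fold higher in PVASCs than in Ab-ASCs (log2 fold change 2.80, SE 0.16, adjusted p = 3.78e-08, edgeR) and 7.79-fold lower in Ab-ASCs than in Sub-ASCs (log2 fold change -2.96, SE 0.16, adjusted p = 5.09e-09, edgeR). Between PVASCs and Sub-ASCs, the log2 fold change of -0.16 did not pass the test (adjusted p = 0.25, edgeR), with an approximate 95% interval of -0.40 to 0.08.

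**Figure D3:**
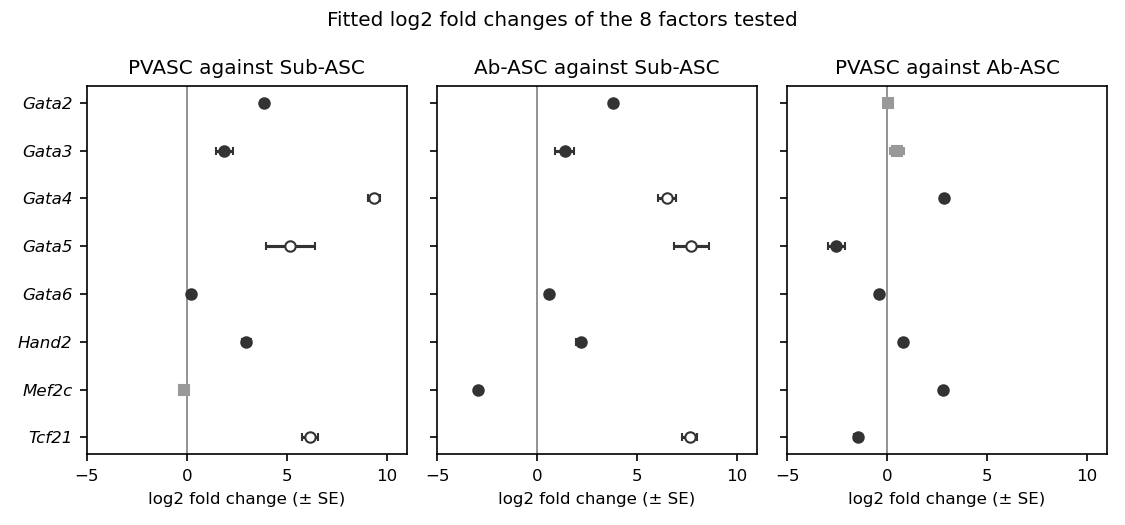
Fitted log2 fold changes of the 8 genes tested, with standard errors, for the 3 comparisons. Black circles passed an adjusted p of 0.05 and grey squares did not, and open circles are fits against Sub-ASC libraries that held 5 reads or fewer in all, whose size depends on the prior count. Mef2c alone lies to the left between Ab-ASCs and Sub-ASCs.

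Over the 8 genes tested, the median fitted log2 fold change against Sub-ASCs was 3.40 for PVASCs and 3.0 for Ab-ASCs. With Gata5 set against 3 reads per Sub-ASC library these were 2.42 and 2.63. Between PVASCs and Ab-ASCs the median was 0.26. The median of all 16526 genes was -0.01, -0.03 and -0.06 in the same order. Since 4 of the 8 genes passed the filter only through groups in which they were high, the medians against Sub-ASCs are partly fixed by the filter and are given as a description. Ranked by FPKM, Gata6 led in Sub-ASCs at 5.60 ± 0.159, followed by Mef2c at 0.823 ± 0.0282 and Gata2 at 0.610 ± 0.129 (SD, n = 3). In Ab-ASCs Gata2 at 8.15 ± 0.336 and Gata6 at 8.03 ± 0.176 overlapped, ahead of Tcf21 at 5.64 ± 0.117. In PVASCs the order was Gata2 at 9.68 ± 0.385, Gata6 at 7.16 ± 0.167 and Gata4 at 3.31 ± 0.213, followed by Tcf21 at 2.36 ± 0.584 and Hand2 at 1.77 ± 0.280, of which only the last 2 were next to each other with overlapping libraries. The listed length of Mef2c is 15715 bases, against 6277 bases for its longest coding transcript, which lowers its FPKM. Its place relative to Hand2 in the PVASC order therefore depends on the length used.

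For each gene tested, the 2 protein-coding genes with the most similar pattern were found among 13875 by Pearson's r of log2(CPM + 1) over the 9 libraries, as a description. The libraries form 3 separate groups, and such an r rests mostly on the group means. Gpd2 and Tcaf2 were nearest to Gata2 (both r = 0.998), and Tuft1 and Igf2bp1 to Gata4 (both r = 0.998). Hand2 was followed by Hoxa2 (r = 0.994) and Psrc1 (r = 0.992), and Tcf21 by Mllt11 (r = 0.998) and Whrn (r = 0.997). Dkk3 and Zfp788 were nearest to Mef2c (both r = 0.994). Dkk3, a secreted protein of the Dickkopf family, was at 78.5 ± 3.17 CPM in Sub-ASCs, 10.4 ± 1.21 in Ab-ASCs and 77.1 ± 5.25 in PVASCs (SD, n = 3). For Gata6 the nearest were Kdelr2 (r = 0.997) and Hsbp1l1 (r = 0.995), for Gata5 Esyt3 (r = 0.992) and Tslp (r = 0.991), and for Gata3 Coil (r = 0.963) and Erf (r = 0.953). Among the members themselves, Gata5 and Gata6 had r = 0.964, Gata4 and Hand2 r = 0.941, and Gata6 and Mef2c r = -0.955.

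Cofactors of the GATA proteins were examined next. Of 5 genes, 3 were higher and 1 lower in PVASCs than in Sub-ASCs, 2 were higher and 1 lower in PVASCs than in Ab-ASCs, and 2 were higher and 3 lower in Ab-ASCs than in Sub-ASCs. Tal1, a bHLH partner of GATA1 and GATA2 in blood and endothelial precursors, had 527, 381 and 453 reads in PVASCs, 50, 42 and 49 in Sub-ASCs and 16, 12 and 23 in Ab-ASCs. Its log2 fold change was 2.94 (SE 0.15) in PVASCs against Sub-ASCs, 4.17 (SE 0.18) against Ab-ASCs, and -1.22 (SE 0.25) in Ab-ASCs against Sub-ASCs. Zfpm1, which encodes the cofactor FOG1, was higher than in Sub-ASCs by a log2 fold change of 1.15 (SE 0.08) in PVASCs and 1.02 (SE 0.08) in Ab-ASCs. Lmo2, a bridging protein of the TAL1 complex, was higher in PVASCs than in Ab-ASCs at 0.45 (SE 0.15). It was lower in Ab-ASCs than in Sub-ASCs at -0.71 (SE 0.15), and its -0.26 (SE 0.14) in PVASCs against Sub-ASCs did not pass the test. Of 2 further genes with a GATA-type finger that were looked at, Gata1 had too few reads to be tested. The other, the repressor Trps1, was higher in PVASCs than in Ab-ASCs at 0.81 (SE 0.13) and lower in Ab-ASCs than in Sub-ASCs at -0.65 (SE 0.14), and its log2 fold change of 0.16 (SE 0.13) in PVASCs against Sub-ASCs did not pass the test.

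Among the MEF2 genes, Mef2d and Mef2a were far above Mef2c per length. Mef2c made up 3.44% ± 0.0771 of the summed MEF2 FPKM in Sub-ASCs, 0.530% ± 0.182 in Ab-ASCs and 3.28% ± 0.123 in PVASCs (SD, n = 3), and Mef2d made up 66.2% to 80.3% as group means. By CPM the share of Mef2c was 6.78%, 1.08% and 5.78%, in the same order of groups. In PVASCs the leading gene turned with the scale, since by CPM Mef2d made up 44.4% ± 1.19 and Mef2a 49.8% ± 1.44. Mef2a was higher in PVASCs than in Sub-ASCs at a log2 fold change of 0.54 (SE 0.09) and than in Ab-ASCs at 0.86 (SE 0.09), and lower in Ab-ASCs than in Sub-ASCs at -0.32 (SE 0.09). Mef2d was lower than in Sub-ASCs in both, at -0.29 (SE 0.05) in PVASCs and -0.22 (SE 0.05) in Ab-ASCs. Mef2b had at most 11 reads in a library and was not tested. Of the 5 MEF2 regulators, the class IIa histone deacetylases that repress MEF2 and the kinase ERK5, 4 were lower and 0 higher in PVASCs than in Sub-ASCs. In Ab-ASCs all 5 were lower than in Sub-ASCs, and between PVASCs and Ab-ASCs 1 was higher and 1 lower in PVASCs. Hdac9, itself known as a MEF2 target, had 38, 56 and 41 reads in Sub-ASCs, 11, 10 and 11 in Ab-ASCs and 67, 49 and 68 in PVASCs. Its log2 fold change was -1.83 (SE 0.27) in Ab-ASCs against Sub-ASCs and 1.95 (SE 0.26) in PVASCs against Ab-ASCs. Of 3 other genes with known MEF2 sites, the nuclear receptor Nr4a1 and the endothelial factor Klf2 were higher in both PVASCs (3.22, SE 0.07, and 1.22, SE 0.06) and Ab-ASCs (3.45, SE 0.07, and 1.38, SE 0.06) than in Sub-ASCs, while 1 was lower in both. In PVASCs against Ab-ASCs, 2 were lower and 0 higher.

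Relatives of the HAND factors and TCF21 in the bHLH family were counted next. All 4 that could be tested, of 6, were lower in PVASCs and in Ab-ASCs than in Sub-ASCs, and 2 were lower in PVASCs than in Ab-ASCs. Msc, 1 of the 4, passed the filter only through Sub-ASCs, so its being lower elsewhere follows in part from that. Of the genes not tested, Tcf23 had 0, 1 and 0 reads in Sub-ASCs, 7, 13 and 5 in Ab-ASCs and 9, 9 and 6 in PVASCs, and Tcf15 had at most 3 in a library. Msc, which encodes the close TCF21 relative musculin, had 36, 25 and 44 reads in Sub-ASCs, 1, 3 and 3 in Ab-ASCs and 5, 2 and 0 in PVASCs. Twist1, a dimer partner of HAND proteins, was at 89.3 ± 4.54 CPM in Sub-ASCs, 65.5 ± 1.77 in Ab-ASCs and 34.4 ± 3.38 in PVASCs (SD, n = 3). Of the 7 E proteins and Id inhibitors, which bind E proteins and keep them from DNA, 4 were higher and 2 lower in PVASCs than in Sub-ASCs, 3 higher and 2 lower in Ab-ASCs than in Sub-ASCs, and 2 higher and 2 lower in PVASCs than in Ab-ASCs. Id1 was higher than in Sub-ASCs at 1.81 (SE 0.09) in PVASCs and 2.13 (SE 0.09) in Ab-ASCs, and Id4 at 1.5 (SE 0.12) and 3.0 (SE 0.12). The E protein gene Tcf4 was higher in PVASCs than in Ab-ASCs at 1.16 (SE 0.11). It was lower than in Sub-ASCs in both, at -0.30 (SE 0.10) in PVASCs and -1.45 (SE 0.11) in Ab-ASCs.

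**Figure D4:**
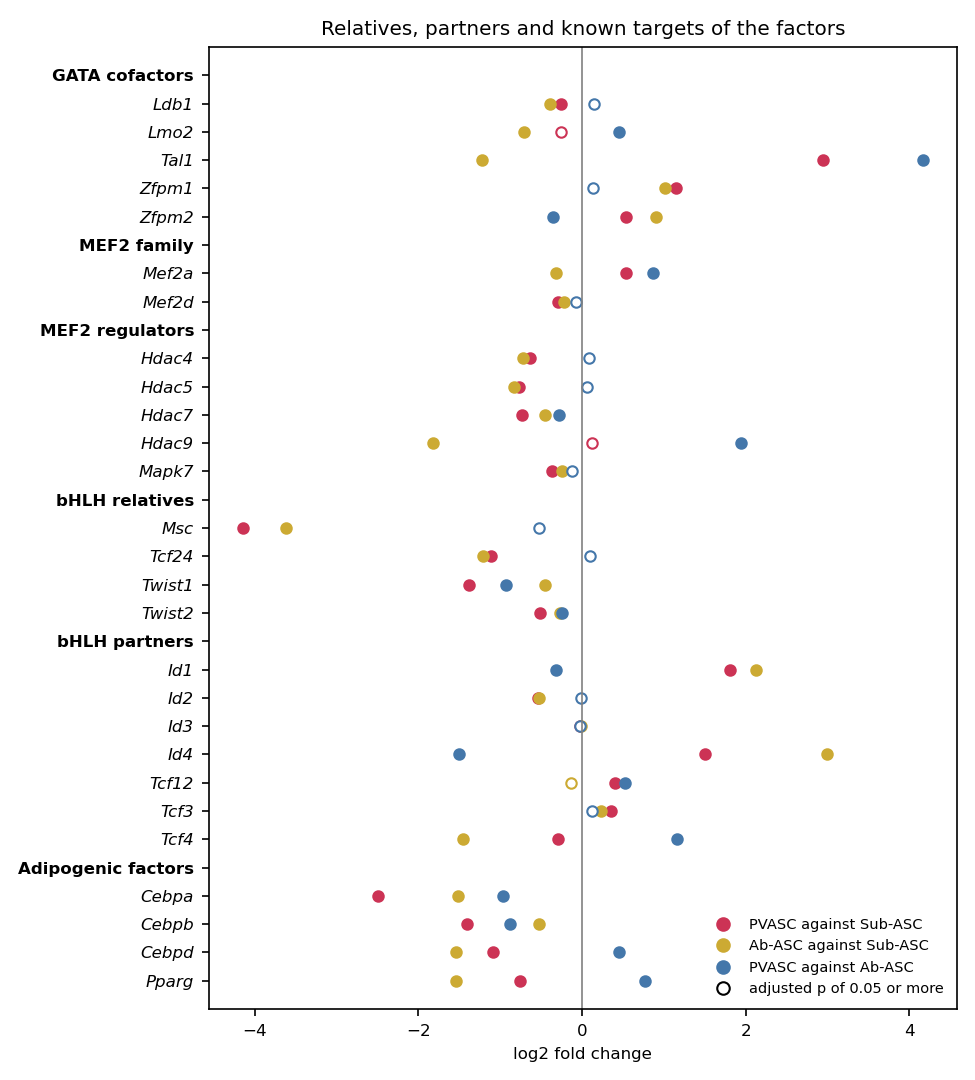
Log2 fold changes of relatives, partners and targets of the 9 factors, grouped by role, with a point for each of the 3 comparisons. Filled points passed an adjusted p of 0.05 and open points did not, and the 4 bHLH relatives tested and the 4 adipogenic factors lie left of 0 in both comparisons with Sub-ASCs.

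Of 6 cardiac partners, 3 had few reads. Nkx2-5 had at most 2 reads in a library, Isl1 at most 6 and Myocd at most 13, and these were not tested. Srf, the serum response factor of muscle and immediate early genes, was at 36.0 ± 0.886 CPM in Sub-ASCs, 153 ± 8.78 in Ab-ASCs and 93.0 ± 1.06 in PVASCs (SD, n = 3). Its log2 fold change was 2.08 (SE 0.06) in Ab-ASCs and 1.37 (SE 0.06) in PVASCs against Sub-ASCs, and -0.71 (SE 0.06) in PVASCs against Ab-ASCs. The T-box gene Tbx20 had 394, 351 and 361 reads in PVASCs and 0 in each library of the other groups. Tbx5 had 117, 93 and 114 reads in PVASCs, 318, 390 and 408 in Sub-ASCs and 0 in each Ab-ASC library, and was lower in PVASCs than in Sub-ASCs at -2.10 (SE 0.11). Thus 2 of the 6 were higher and 1 lower in PVASCs than in Sub-ASCs and also than in Ab-ASCs, and 1 was higher and 1 lower in Ab-ASCs than in Sub-ASCs. Of 8 cardiac genes with known GATA4 or MEF2 sites, 4 were tested. Against Sub-ASCs, 2 were higher and 1 lower in PVASCs, and 3 were higher and 1 lower in Ab-ASCs. The natriuretic peptide gene Nppb had 3, 0 and 0 reads in Sub-ASCs, 29, 28 and 22 in Ab-ASCs and 28, 32 and 31 in PVASCs. The troponin gene Tnnt2 was at 0.172 ± 0.0942 CPM in Sub-ASCs, 1.63 ± 0.427 in Ab-ASCs and 2.42 ± 0.473 in PVASCs (SD, n = 3). Between PVASCs and Ab-ASCs, Tnnc1 alone of the 4 passed the test, at -0.91 (SE 0.25).

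Of 4 factors of the epicardium, mesothelium and splanchnic mesoderm, 3 were higher and 0 lower than in Sub-ASCs both in PVASCs and in Ab-ASCs, and 2 were higher and 2 lower in PVASCs than in Ab-ASCs. Wt1 had 847, 1025 and 1160 reads in Ab-ASCs, 336, 292 and 301 in PVASCs and 12, 23 and 10 in Sub-ASCs. Its log2 fold change was 6.30 (SE 0.16) in Ab-ASCs and 4.03 (SE 0.18) in PVASCs against Sub-ASCs, and -2.26 (SE 0.11) in PVASCs against Ab-ASCs. Foxf1 was higher in PVASCs than in Sub-ASCs at 1.52 (SE 0.11) and than in Ab-ASCs at 1.20 (SE 0.11). The 4 adipogenic factors Pparg, Cebpa, Cebpb and Cebpd, of which GATA2 and GATA3 are known to repress Pparg and to bind C/EBP proteins, were all lower in PVASCs and in Ab-ASCs than in Sub-ASCs. Cebpa, a driver of terminal fat cell differentiation, was at 116 ± 8.01 CPM in Sub-ASCs, 40.5 ± 3.63 in Ab-ASCs and 20.7 ± 0.994 in PVASCs, and Pparg, the main adipogenic receptor, at 42.1 ± 2.13, 14.5 ± 0.603 and 24.9 ± 1.68 (SD, n = 3). Between PVASCs and Ab-ASCs, 2 of these were higher and 2 lower.

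Markers of other cell types moved with several of these genes, and their part in the results was not tested. In bulk libraries, fewer cells of a type and less RNA per cell cannot be told apart. The 10 mesothelial markers, of a cell type that expresses GATA4, GATA6 and TCF21, summed to 2.75 to 3.18 CPM in Sub-ASCs, 82.3 to 92.8 in Ab-ASCs and 39.9 to 42.3 in PVASCs, and Upk1b, Lrrn4 and Muc16 were at 0 reads in Sub-ASCs. Of these markers, 7 were higher and 0 lower in PVASCs than in Sub-ASCs, 8 higher and 0 lower in Ab-ASCs than in Sub-ASCs, and 2 higher and 7 lower in PVASCs than in Ab-ASCs. The 8 endothelial markers, of cells that express Gata2, Mef2c and Tal1, summed to 209 to 221 CPM in Sub-ASCs, 73.0 to 74.6 in Ab-ASCs and 884 to 887 in PVASCs, with no marker at 0. Of these, 7 were higher and 1 lower in PVASCs than in Sub-ASCs, 8 higher in PVASCs than in Ab-ASCs, and 8 lower in Ab-ASCs than in Sub-ASCs. The 6 genes of dividing cells, all higher in PVASCs and in Ab-ASCs than in Sub-ASCs, summed to 51.8 to 58.0, 569 to 655 and 580 to 597 CPM in Sub-ASCs, Ab-ASCs and PVASCs, and 1 was higher and 4 lower in PVASCs than in Ab-ASCs.

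The 9 haematopoietic markers summed to 264 to 270 CPM in Sub-ASCs, 301 to 391 in Ab-ASCs and 296 to 304 in PVASCs. Most of this was Lyz2, at means of 163, 271 and 249 CPM. Of these markers, 2 were higher and 6 lower in PVASCs, and likewise in Ab-ASCs, than in Sub-ASCs, and 2 higher and 2 lower in PVASCs than in Ab-ASCs. Among those lower, Cpa3 was at 17.6, 0.0148 and 0.0726 CPM in the same order, and it passed the filter only through Sub-ASCs. The 8 muscle markers summed to 3.97 to 5.24 CPM in Sub-ASCs, 22.8 to 26.0 in Ab-ASCs and 13.3 to 16.2 in PVASCs, with Myh6 at 0 reads in every library, and 3 were tested. Most of the sum in Ab-ASCs and PVASCs was Acta1, skeletal muscle actin, at 1.09 ± 0.119, 23.4 ± 1.56 and 13.5 ± 1.63 CPM (SD, n = 3). Acta1 was higher and the other 2 were lower in PVASCs and in Ab-ASCs than in Sub-ASCs, and Acta1 was lower in PVASCs than in Ab-ASCs. The 5 epithelial markers summed to at most 5.42 CPM in Ab-ASCs, 0.572 in Sub-ASCs and 0.336 in PVASCs, and 2 were tested, both higher in Ab-ASCs than in each other group, with 1 lower in PVASCs than in Sub-ASCs. Both passed the filter only through Ab-ASCs, so these calls follow in part from it. Of the 5 adipocyte markers, which summed to 142 to 155, 35.0 to 38.2 and 45.6 to 48.3 CPM in Sub-ASCs, Ab-ASCs and PVASCs, 3 were tested, all lower in PVASCs and Ab-ASCs than in Sub-ASCs, and 2 were higher in PVASCs than in Ab-ASCs. All 9 stromal markers of the labelled cell type had reads in every group, at 18120 to 19251, 6777 to 6929 and 4773 to 4924 CPM in the same order. Of these, 2 were higher and 7 lower in PVASCs, and likewise in Ab-ASCs, than in Sub-ASCs, and 4 were higher and 5 lower in PVASCs than in Ab-ASCs. In PVASCs against Sub-ASCs, the largest log2 fold changes were those of Lum (-6.79, SE 0.14) and Dcn (-6.31, SE 0.19). In Ab-ASCs against Sub-ASCs, they were those of Ly6a (-6.56, SE 0.11) and Dcn (-4.61, SE 0.17).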

How the data were processed

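The authors deposited raw counts of reads per gene and library, unnormalized, with the position, length and biotype of each gene. The submitters' processing notes name CASAVA 1.8, Bowtie 0.12.2 and featureCounts 1.5.0-p3 and the builds mm8 and mm10. Strand setting and annotation release are not given in the sources used here. For 98.3% of the 54532 genes, position and strand equalled GENCODE M21 on GRCm38. Gata6 was not among them, as its listed start differs.

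Groups and replicate numbers were taken from the sample titles. The counts were filtered by filterByExpr (minimum count 10), scaled by TMM and tested with edgeR 4.0.16 (glmQLFit, glmQLFTest) in R 4.3.3, all 9 libraries in a single fit without covariates. The study states general tests for comparing groups in its experiments, which were not used here because the values are counts. SEs were calculated from the F statistic. The procedure was tested on simulated data before use. FPKM was calculated here from count, listed gene length and library total. Promoters came from RefSeq (6 of the 9 genes matched) and transcripts from GENCODE M21.

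The 9 genes, the partner and marker lists and the tests were chosen with earlier results of these data known. Named are the 9 genes, genes overlapping them or starting within 5000 bases, the 2 most similar genes to each, and up to 2 called genes per list and comparison with the largest change. Genes named with values outside this rule were chosen after their values were seen. Alternatives were DESeq2 1.42.0, RLE size factors, other filters, only the groups compared, a replicate block, a fold cutoff and leaving out each library. No per-sample column was left out.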

Additional observations from a re-analysis of the deposited data

How the results depend on the processing

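Over 19 settings, 40 results gave 522 values, of which 499 kept their direction and side of the threshold or stayed within the replicate spread or 1.5 times the count. With at least 10 reads required in every library, only 4 of the 9 genes could be tested, and 3 were higher and 0 lower in PVASCs than in Sub-ASCs, 3 higher and 1 lower in Ab-ASCs than in Sub-ASCs and 2 higher and 1 lower in PVASCs than in Ab-ASCs. This filter left 13104 genes, and the share of them that were called was not counted, so these counts are a description only. The log2 fold change of Gata2 between PVASCs and Ab-ASCs, which did not pass the test, ranged from -0.0210 to 0.0986 over all alternatives and from -0.0210 to 0.0614 with a library left out. It changed sign to -0.0210 without Ab-ASC replicate 3 and to -0.0130 without PVASC replicate 1. Leaving out a library otherwise ended a call only for Gata3 between Ab-ASCs and Sub-ASCs. Requiring an absolute log2 change of 1 or more ended the calls of Gata6 and, between PVASCs and Ab-ASCs, of Hand2. With the replicate block, 7 genes were higher in PVASCs and 7 higher and 1 lower in Ab-ASCs than in Sub-ASCs, and 3 were higher and 3 lower in PVASCs than in Ab-ASCs, so it changed no count. Deviations of same-numbered libraries had correlations of -0.0405 to 0.0723 across genes. With 3 libraries in each group and their origin not given, this cannot decide whether same-numbered libraries are paired.

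Shares within families moved with the scale and length used. By summed CPM, Gata2 was 48.9% of GATA in PVASCs, Gata6 48.7% in Ab-ASCs and 37.5% in PVASCs, and Mef2c 6.78%, 1.08% and 5.78% of MEF2 in Sub-ASCs, Ab-ASCs and PVASCs. With the longest coding transcript as length, an alternative chosen after seeing the data, Gata2 was 45.3% and Gata6 51.0% in Ab-ASCs and Gata6 39.5% in PVASCs, and Mef2c 5.91%, 0.936% and 5.07%. In Ab-ASCs Gata6 thus led Gata2 by these scales. With the longest coding transcript as length, Mef2d was 45.3% and Mef2a 49.5% of MEF2 in PVASCs. Low counts limit Hand1 and Gata5, and Gata3, Gata4 and Tcf21 in comparisons with Sub-ASCs.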
